A study of Danio rerio with 8 samples.

Results

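Receptors for neurotrophins, for ligands of the GDNF family and for ligands of the EGF family were compared between sorted tumour cells of transgenic zebrafish. Of 9 listed gene symbols, 6 are rows of the deposited count table, which holds 14781 gene symbols in all: ntrk2b, ntrk3a, ngfrb, ret, gfra1a and erbb2. The symbols ntrk2a, ntrk3b and ngfra match no row as written and were not analysed here. All 6 genes passed the filter on low counts and were tested.

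The myrAKT group holds 4 libraries of mCherry-positive ganglioneuroma cells from fish with a transgene for myrAKT, an AKT kinase held at the membrane. The MYCN group holds 4 libraries of EGFP-positive neuroblastoma cells from fish with a MYCN transgene. Genotype, tumour type and sorting colour go together in every library and cannot be told apart, and the groups share no common control. The labels used here give no promoter, age, strain or number of fish per library, and p-values therefore reflect only how these libraries vary. Each library held between 25948623 and 43083220 counts in the myrAKT group and between 36984845 and 55827123 counts in the MYCN group.

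Trk receptors are tyrosine kinases that bind neurotrophins with high affinity: NTRK2 mainly BDNF and NTRK3 mainly NT-3. The p75 receptor, encoded by NGFR, binds all neurotrophins and their precursors and has no kinase domain. RET is the shared signalling kinase of the GDNF family, and a GFR alpha co-receptor decides which ligand it answers to: GFRA1 binds GDNF and GFRA3 binds artemin. Sympathetic neuroblasts use these receptors as they migrate, grow axons and compete for survival, and in human neuroblastoma high NTRK2 is known from aggressive tumours. ERBB2 binds no ligand of its own and signals as a partner of EGFR, ERBB3 or ERBB4. Together with ERBB3 it is the neuregulin receptor of Schwann cells, and it is also common in epithelia.

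The sorted cells carried the markers of catecholamine cells in both groups, and the myrAKT libraries carried more of those of several other cell types. Markers of interrenal (steroid synthesis) cells were present in both groups, with a sum between 778 and 1615 CPM in myrAKT and between 498 and 913 CPM in MYCN. The sum over 17 sympathoadrenal marker genes, in CPM (the share of a library's reads, scaled with TMM factors), was between 2268 and 5018 CPM in the myrAKT libraries and between 10475 and 12420 CPM in the MYCN libraries. The sum over 12 leukocyte markers was between 17338 and 21899 CPM in myrAKT and between 441 and 1406 CPM in MYCN, and that over 13 kidney tubule markers between 1233 and 4347 CPM in myrAKT and between 26.9 and 52.1 CPM in MYCN. In bulk RNA, fewer cells of a type and less RNA per cell cannot be told apart, and the part of these cell types in the differences below was not tested. MYCN 4 stood apart from the other MYCN libraries in its counts across genes. Of the 6 receptor genes, only erbb2 changed its call without that library, and counts over gene lists that changed without it are given beside them.

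Across all genes, 76.0% of the 12126 tested were called at an adjusted p under 0.05 (edgeR quasi-likelihood test, Benjamini-Hochberg adjustment over all tested genes): 37.6% higher and 38.4% lower in myrAKT. Of the 6 receptor genes 4 fell, 1 rose and 1 was not called, a share of calls near that background. The groups did not overlap for 3 of the 6, all with myrAKT below, where 72.5% of all tested genes had groups that did not overlap: 36.3% had myrAKT below and 36.2% had myrAKT above. The median log2 fold change (myrAKT minus MYCN) was -1.07 over the 6 genes and -0.04 over all tested genes. The genes differ widely in size of change, so each is described with its own values.

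**Figure D1:**
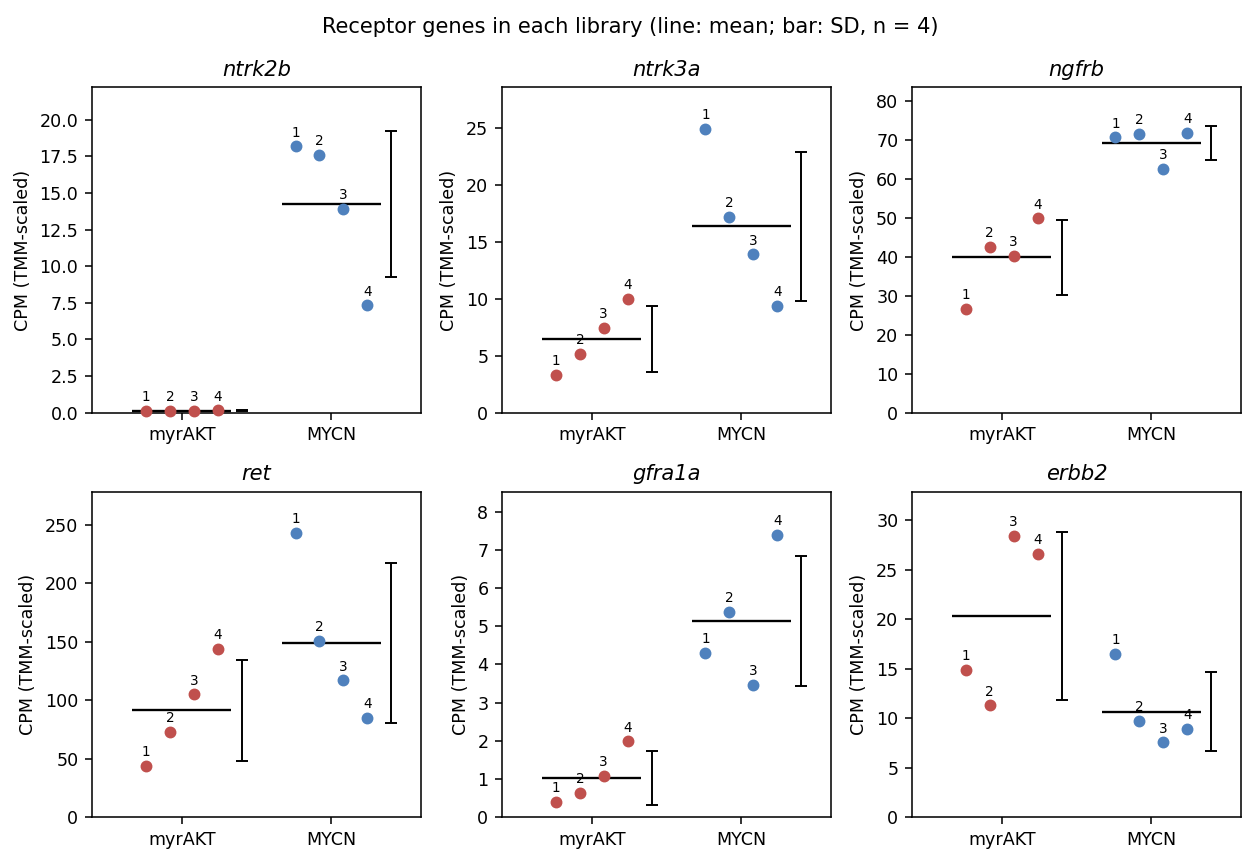
Level of each receptor gene in every library, in TMM-scaled CPM on a linear axis; points are libraries numbered by replicate, lines are group means and bars are SD (n = 4). Ntrk2b sits at 0.112 to 0.158 CPM in the 4 myrAKT libraries, against 7.34 to 18.2 CPM in MYCN, whereas the groups overlap for ntrk3a, ret and erbb2.

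Ntrk2b, a zebrafish gene for the BDNF receptor TrkB, was barely detected in the myrAKT libraries and clearly detected in the MYCN libraries. It was counted 6, 6, 5 and 5 times in myrAKT libraries 1 to 4, or 0.141, 0.125, 0.112 and 0.158 CPM, against 772, 590, 565 and 306 times in MYCN libraries 1 to 4, or 18.2, 17.6, 13.9 and 7.34 CPM. All 4 myrAKT libraries lay far below the lowest MYCN library, MYCN 4. The mean was 0.134 ± 0.0199 CPM in myrAKT and 14.3 ± 4.99 CPM in MYCN (SD, n = 4 each), which put the log2 fold change at -6.72 with SE 0.42 (edgeR adjusted p = 4.0e-07). In the order of signed log2 fold changes it stood at the 0.264 percentile of all tested genes. Ntrk2b passed the filter on low counts only through its MYCN libraries, so the filter favoured a fall. With no filter on low counts its log2 fold change was -6.72 (edgeR adjusted p = 2.4e-07). The 4 myrAKT libraries together held 22 counts, for which the exact Poisson 95% interval is 13.8 to 33.3, and the MYCN libraries held 2233; the interval covers counting error only.

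Ntrk2b was also low relative to catecholamine genes in the same libraries. Divided by the summed counts of dbh and th, which encode the enzymes that make noradrenaline and L-DOPA, the log2 ratio of ntrk2b averaged -13.92 ± 0.50 in myrAKT and -8.83 ± 0.67 in MYCN (SD, n = 4 each). The difference was -5.10, with all myrAKT libraries below all MYCN libraries (two-sided exact permutation test, p = 0.0286, adjusted p = 0.04 over 7 ratios). An exact permutation p of 0.0286, here and below, is the smallest that 4 against 4 libraries can give. The 7 ratios were chosen after the data were seen. A ratio within a library does not depend on how libraries are scaled.

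Ntrk3a, a gene for the NT-3 receptor TrkC, also fell. It had 3.33, 5.14, 7.45 and 10 CPM in myrAKT libraries 1 to 4, against 24.9, 17.2, 13.9 and 9.4 CPM in MYCN libraries 1 to 4. The groups overlap at their edges, since myrAKT 4 lay above MYCN 4. The log2 fold change was -1.35 with SE 0.37 (edgeR adjusted p = 0.0082), and 1038 counts in myrAKT and 2591 in MYCN stand behind it. Relative to dbh and th the gene did not differ detectably, with a log2 ratio of -8.55 ± 0.20 in myrAKT and -8.63 ± 0.62 in MYCN (exact permutation p = 0.914). When library sizes were set by the summed counts of dbh and th, called dbh/th scaling here, its log2 fold change was 0.00 with SE 0.33.

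Ngfrb, a gene for the p75 neurotrophin receptor, was the most even of the 6 in the MYCN libraries and lower in all myrAKT libraries. It had 26.7, 42.5, 40.2 and 49.8 CPM in myrAKT libraries 1 to 4, against 70.6, 71.5, 62.6 and 71.8 CPM in MYCN libraries 1 to 4, with no overlap. The coefficient of variation was 24.3% in myrAKT and 6.32% in MYCN. The log2 fold change was -0.80 with SE 0.18 (edgeR adjusted p = 0.0024). This call depends on scaling: with library totals the log2 fold change was -0.40 (adjusted p = 0.094), and under dbh/th scaling it turned to 0.62 (adjusted p = 0.073). Set against dbh and th within each library, ngfrb was higher in all 4 myrAKT libraries, at a log2 ratio of -5.86 ± 0.21 in myrAKT and -6.47 ± 0.05 in MYCN (exact permutation p = 0.0286, adjusted p = 0.04). Dbh and th were themselves lower in myrAKT, at log2 fold changes of -1.42 and -1.33. Under dbh/th scaling the median over all tested genes was 1.45, above the 0.62 of ngfrb.

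Among genes for the ligands of these receptors, ntf7, a neurotrophin known from fish, rose to 0.689 ± 0.169 CPM in myrAKT, against 0.0483 ± 0.0588 CPM in MYCN (edgeR adjusted p = 1.1e-04). Its libraries held 24, 43, 24 and 24 counts in myrAKT and 0, 4, 3 and 0 in MYCN. Ntf7 passed the filter on low counts only through its myrAKT libraries, so the filter favoured a rise. With a filter of at least 1 CPM in 4 libraries it was not tested. The ligand gene bdnf, at 3 to 20 counts a library, was too low to be tested.

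For ret the difference between the groups did not pass the test. It had 43.9, 73.0, 105 and 144 CPM in myrAKT libraries 1 to 4, against 243, 151, 117 and 85.1 CPM in MYCN libraries 1 to 4. The groups overlap, since myrAKT 3 and 4 lay above MYCN 4 and myrAKT 4 also above MYCN 3. The mean was 91.5 ± 42.9 CPM in myrAKT and 149 ± 68.3 CPM in MYCN (SD, n = 4 each). The log2 fold change was -0.71 with SE 0.39 (edgeR adjusted p = 0.13). Without myrAKT 4 the value was -1.01 (adjusted p = 0.047), and under dbh/th scaling it was 0.61 (adjusted p = 0.089). The log2 ratio of ret to dbh and th was -4.76 ± 0.25 in myrAKT and -5.46 ± 0.66 in MYCN (exact permutation p = 0.0857, adjusted p = 0.1).

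Gfra1a, a gene for the co-receptor of GDNF, fell in myrAKT. It had 0.399, 0.645, 1.08 and 1.99 CPM in myrAKT libraries 1 to 4, against 4.31, 5.38, 3.47 and 7.39 CPM in MYCN libraries 1 to 4. The highest myrAKT library lay below the lowest MYCN library. The log2 fold change was -2.38 with SE 0.43 (edgeR adjusted p = 6.6e-04), and it was -1.01 (adjusted p = 0.012) under dbh/th scaling. Its log2 ratio to dbh and th was -11.33 ± 0.51 in myrAKT and -10.27 ± 0.37 in MYCN (exact permutation p = 0.0286, adjusted p = 0.04 over 7 ratios), with a difference of -1.06 that became -0.91 (p = 0.0571) when 5 in place of 0.5 was added to each count. The proportion of ret to gfra1a counts also differed: ret had 107, 111, 96.8 and 71.5 counts for each gfra1a count in myrAKT libraries 1 to 4, against 56.3, 28.0, 33.6 and 11.5 in MYCN libraries 1 to 4. The log2 ratio averaged 6.57 ± 0.29 in myrAKT and 4.81 ± 0.95 in MYCN, a difference of 1.77 (exact permutation p = 0.0286, adjusted p = 0.0286 over 2 ratios). This covers gfra1a alone. Another co-receptor gene, gfra3, had 3421 to 7638 counts in myrAKT libraries and 7699 to 13372 in MYCN libraries, and its ratio to ret was not tested.

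Of the GFR alpha genes tested beside gfra1a, 2 rose and 1 fell, where 37.6% of all tested genes were higher and 38.4% lower. Gfra3, a gene for the artemin co-receptor, had 80.3, 125, 171 and 209 CPM in myrAKT libraries 1 to 4, against 315, 269.6, 189.7 and 262 CPM in MYCN libraries 1 to 4. The groups overlap, and the log2 fold change was -0.82 with SE 0.28 (edgeR adjusted p = 0.022). That call was lost with library totals (-0.41, adjusted p = 0.21), without myrAKT 2 (adjusted p = 0.055) and without MYCN 1 (adjusted p = 0.052), and the sign turned to 0.54 under dbh/th scaling (adjusted p = 0.13). Gfra1b rose to 0.384 ± 0.152 CPM in myrAKT, against 0.0301 ± 0.0231 CPM in MYCN, and gfra2a rose to 0.781 ± 0.206 CPM in myrAKT, against 0.148 ± 0.0687 CPM in MYCN, both from few counts. Both passed the filter on low counts only through their myrAKT libraries, so the filter favoured a rise. With a filter of at least 1 CPM in 4 libraries neither was tested. The ligand gene gdnfa, at 1 to 12 counts a library, was too low to be tested.

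Ret and ntrk3a kept nearly the same proportion from library to library. For each ntrk3a count there were 13.1, 14.2, 14.1 and 14.3 ret counts in myrAKT libraries 1 to 4, against 9.78, 8.76, 8.4 and 9.04 in MYCN libraries 1 to 4. The level of ret itself varied 3.27 times between the lowest and highest myrAKT library and 2.86 times between MYCN libraries. The log2 ratio averaged 3.80 ± 0.06 in myrAKT and 3.17 ± 0.09 in MYCN, a difference of 0.63 (exact permutation p = 0.0286, adjusted p = 0.04 over 7 ratios). This ratio is among the 7 chosen after the data were seen, and its p is the smallest possible. With the group means taken out, Pearson's r of log2 CPM between ret and ntrk3a was 0.996 over the 8 libraries. The libraries share depth and cell mixture across genes, so r is a description and carries no p.

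In the myrAKT libraries ret also kept pace with phox2bb, a transcription factor gene of sympathetic neuroblasts. Ret counts were 0.946, 0.963, 1.02 and 1.12 times phox2bb counts in myrAKT libraries 1 to 4, against 0.484, 0.320, 0.243 and 0.245 times in MYCN libraries 1 to 4. The log2 ratio averaged 0.01 ± 0.11 in myrAKT and -1.69 ± 0.47 in MYCN, a difference of 1.70 (exact permutation p = 0.0286, adjusted p = 0.0286 over 2 ratios). Phox2bb itself had 46.4, 75.8, 104 and 129 CPM in myrAKT libraries 1 to 4, against 503, 472, 483 and 348 CPM in MYCN libraries 1 to 4. In myrAKT, ret, ntrk3a, ngfrb, gfra1a and phox2bb were each lowest in library 1 and highest in library 4. The sympathoadrenal marker sum followed the same order, at 2268, 3159, 4147 and 5018 CPM in myrAKT libraries 1 to 4. So did the neuron marker sum, at 179, 247, 339.6 and 444 CPM. The sum over interrenal (steroid synthesis) markers did too, at 778, 917, 1503 and 1615 CPM. In MYCN the sympathoadrenal sum varied little. There ret and ntrk3a were highest in library 1 and lowest in library 4, and gfra1a was highest in library 4.

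**Figure D2:**
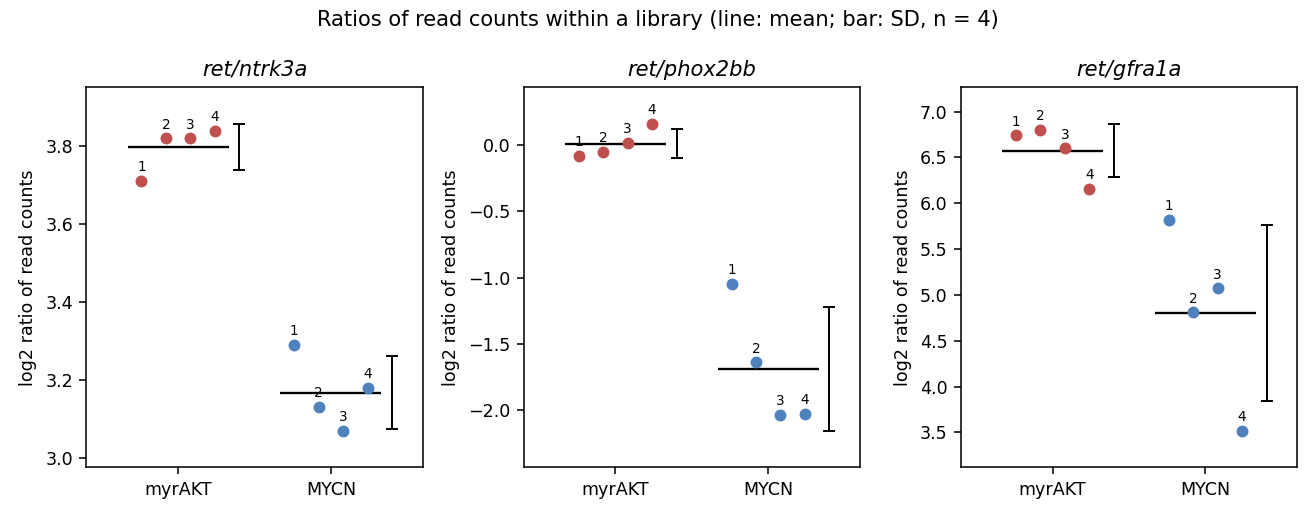
Log2 ratio of read counts of ret to ntrk3a, phox2bb and gfra1a within each library; points are libraries numbered by replicate, lines are group means and bars are SD (n = 4). The 4 myrAKT libraries lie above the 4 MYCN libraries in each panel, with means of 3.80 against 3.17, 0.01 against -1.69 and 6.57 against 4.81.

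The genes most like each receptor in their variation within groups were looked up among 7936 or 7937 other genes with a mean log2 CPM of at least 3. For both ret and ntrk3a they were each other and cacna1da, a voltage-gated calcium channel gene, with r = 0.996 in each case. For ntrk2b they were rgs5b (r = 0.988) and zswim6 (0.987), for ngfrb lgi1a (0.976) and kifap3b (0.957), for gfra1a gnb2 (0.982) and slc9a6b (0.980), and for erbb2 plxnb2a (0.980) and sypl2a (0.970). These are the highest of many values of r over 8 libraries and are given as a description. Among the 15 pairs of receptors r ran between -0.22, for ntrk2b with gfra1a, and 0.996, for ret with ntrk3a. Ntrk2b rests on 5 or 6 counts in each myrAKT library.

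Erbb2 was the only member higher in myrAKT. It had 14.9, 11.3, 28.4 and 26.6 CPM in myrAKT libraries 1 to 4, against 16.5, 9.74, 7.56 and 8.9 CPM in MYCN libraries 1 to 4. Libraries 3 and 4 of myrAKT stood above all MYCN libraries, whereas libraries 1 and 2 lay below MYCN 1. The log2 fold change was 0.92 with SE 0.34 (edgeR adjusted p = 0.032). The call was lost without myrAKT 3 (0.72, adjusted p = 0.095), myrAKT 4 (0.77, 0.087), MYCN 2 (0.87, 0.074), MYCN 3 (0.82, 0.078) or MYCN 4 (0.83, 0.079). Relative to dbh and th the log2 ratio was -6.90 ± 0.43 in myrAKT and -9.22 ± 0.46 in MYCN, with no overlap (exact permutation p = 0.0286, adjusted p = 0.04). Under dbh/th scaling the log2 fold change of erbb2 was 2.31, where the median over all tested genes was 1.45.

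Both tested receptor genes that encode partners of ERBB2 rose, where 37.6% of all tested genes were higher and 38.4% lower. Egfra, a gene for the EGF receptor, had 16.4, 9.51, 27.8 and 27.1 CPM in myrAKT libraries 1 to 4, against 2.45, 2.00, 2.36 and 1.73 CPM in MYCN libraries 1 to 4 (log2 fold change 3.23 with SE 0.36, edgeR adjusted p = 2.3e-05). Erbb3a, a gene for the neuregulin receptor ERBB3, had 9.57, 5.26, 13.7 and 15.9 CPM in myrAKT libraries 1 to 4, against 0.0942, 0.0597, 0.517 and 0.0959 CPM in MYCN libraries 1 to 4 (log2 fold change 5.80 with SE 0.57, edgeR adjusted p = 1.0e-05). For egfra and erbb3a every myrAKT library lay above every MYCN library, where 36.2% of all tested genes had myrAKT above. Erbb3a had 4, 2, 21 and 4 counts in MYCN libraries 1 to 4. It passed the filter on low counts only through its myrAKT libraries, so the filter favoured a rise. Erbb3b had no count in any MYCN library and 0, 0, 1 and 3 counts in myrAKT libraries 1 to 4, and erbb4a had at most 13 counts in a library, so neither was tested.

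Marker sums of several other cell types were also higher in myrAKT. The kidney tubule marker sum stood at 2800, 1233, 4347 and 3525 CPM in myrAKT libraries 1 to 4, against 26.9, 34.8, 52.1 and 38.9 CPM in MYCN libraries 1 to 4. The sum over 12 epithelial markers was between 1245 and 1524 CPM in myrAKT and between 94.7 and 205 CPM in MYCN. In myrAKT 2, erbb2, egfra and erbb3a and the kidney tubule and epithelial sums were each at the lowest of their group. In MYCN 1, erbb2 was at its highest of the group while the kidney tubule and epithelial sums were at their lowest, 26.9 and 94.7 CPM. Of 10 tested glial and Schwann cell markers 8 rose and 1 fell, where 37.6% of all tested genes were higher and 38.4% lower. Their sum over 14 genes was between 121 and 134 CPM in myrAKT and between 29.8 and 50.5 CPM in MYCN. Much of that sum came from mbpb, with means of 78.8 CPM in myrAKT and 27.7 CPM in MYCN. Pmp22b added means of 20.4 CPM in myrAKT and 1.41 CPM in MYCN. Sox10, a transcription factor of neural crest and glia, stood at 2.59 ± 0.887 CPM in the myrAKT group and 0.304 ± 0.196 CPM in the MYCN group, on average. It had 8, 9, 24 and 7 counts in MYCN libraries 1 to 4. Sox10 passed the filter on low counts only through its myrAKT libraries, so the filter favoured a rise. Outside the rule for naming genes given below, the myelin gene mpz stayed at or below 0.507 CPM in myrAKT and 1.4 CPM in MYCN. Olig2, also outside that rule, had no count in any library. The part of these cells in the levels of erbb2, egfra and erbb3a was not tested.

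Ligands of the family went both ways. Of 6 tested ERBB ligand genes 3 rose, 1 fell and 2 did not pass, a share of calls near the 76.0% over all tested genes, of which 37.6% were higher and 38.4% lower. Under dbh/th scaling 5 of the 6 were higher and 0 lower. Hbegfa, a gene for heparin-binding EGF, rose to 23.6 ± 3.15 CPM in myrAKT, against 5.65 ± 1.83 CPM in MYCN (log2 fold change 2.07 with SE 0.23, edgeR adjusted p = 2.8e-05), and hbegfb to 8.41 ± 1.62 CPM in myrAKT, against 3.18 ± 1.79 CPM in MYCN. Tgfa, a ligand of the EGF receptor, had 23, 30, 28 and 14 counts in myrAKT libraries 1 to 4 and 2, 0, 0 and 0 in MYCN libraries 1 to 4 (edgeR adjusted p = 7.4e-05). Tgfa passed the filter on low counts only through its myrAKT libraries, so the filter favoured a rise. With a filter of at least 1 CPM in 4 libraries tgfa was not tested, and 2 of 5 tested ligand genes rose and 1 fell. The neuregulin gene nrg2b fell to 7.54 ± 2.89 CPM in myrAKT, against 18.5 ± 1.93 CPM in MYCN (log2 fold change -1.30 with SE 0.26, edgeR adjusted p = 0.0011), and stood at 0.06 (adjusted p = 0.86) under dbh/th scaling. Nrg1 and nrg2a, at log2 fold changes of -0.41 and 0.32, did not pass.

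**Figure D3:**
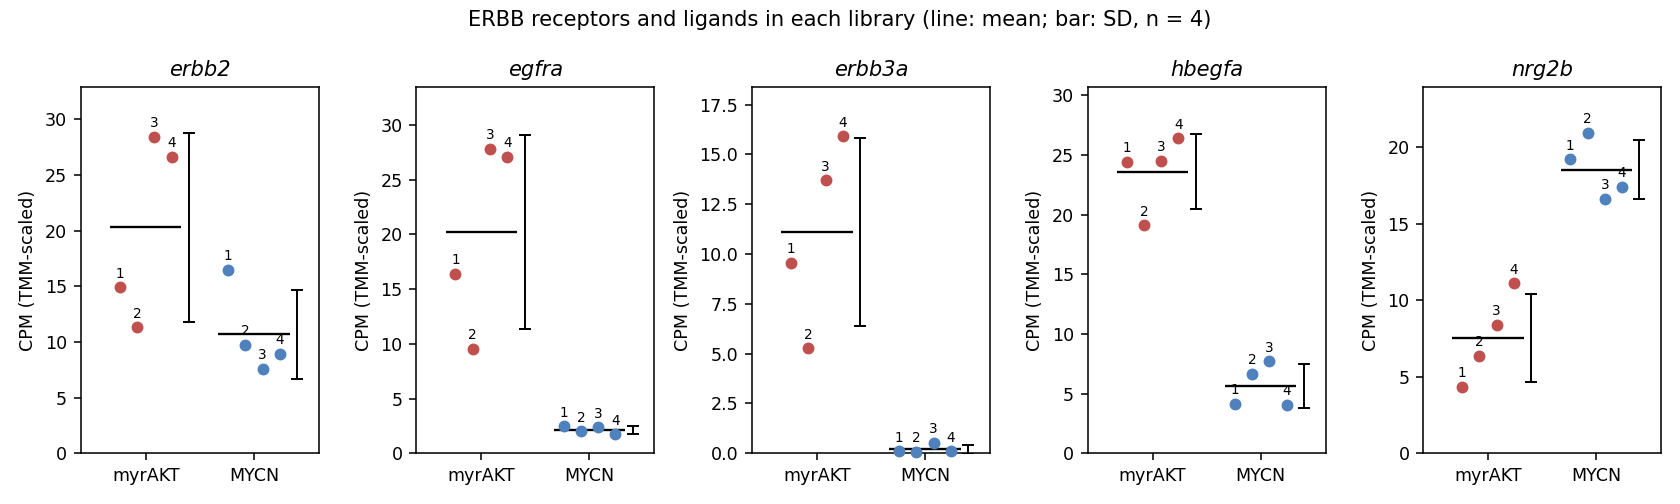
Levels of erbb2, its partners egfra and erbb3a, and the ligand genes hbegfa and nrg2b in each library, in TMM-scaled CPM on linear axes; points are libraries numbered by replicate, lines are group means and bars are SD (n = 4). Egfra, erbb3a and hbegfa are higher in all myrAKT libraries, nrg2b is lower in all of them (11.1 CPM or less, against 16.6 CPM or more in MYCN), and erbb2 overlaps.

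Library scaling shifts all genes together, and with them the receptors. The median over all genes was a log2 fold change of -0.04 with TMM factors, 0.34 with library totals and 1.45 under dbh/th scaling. After subtraction of that median, ntrk2b stood at -6.68 with TMM factors and -6.77 under dbh/th scaling, gfra1a at -2.34 and -2.45, and ntrk3a at -1.30 and -1.45. In the same order ngfrb stood at -0.75 and -0.83, ret at -0.66 and -0.83, and erbb2 at 0.97 and 0.86. A scaling moves every log2 fold change by nearly the same amount. The values after subtraction are therefore close by construction, and do not show that a call is stable. Ntrk2b and gfra1a were called lower and erbb2 higher under all 3 scalings.

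**Figure D4:**
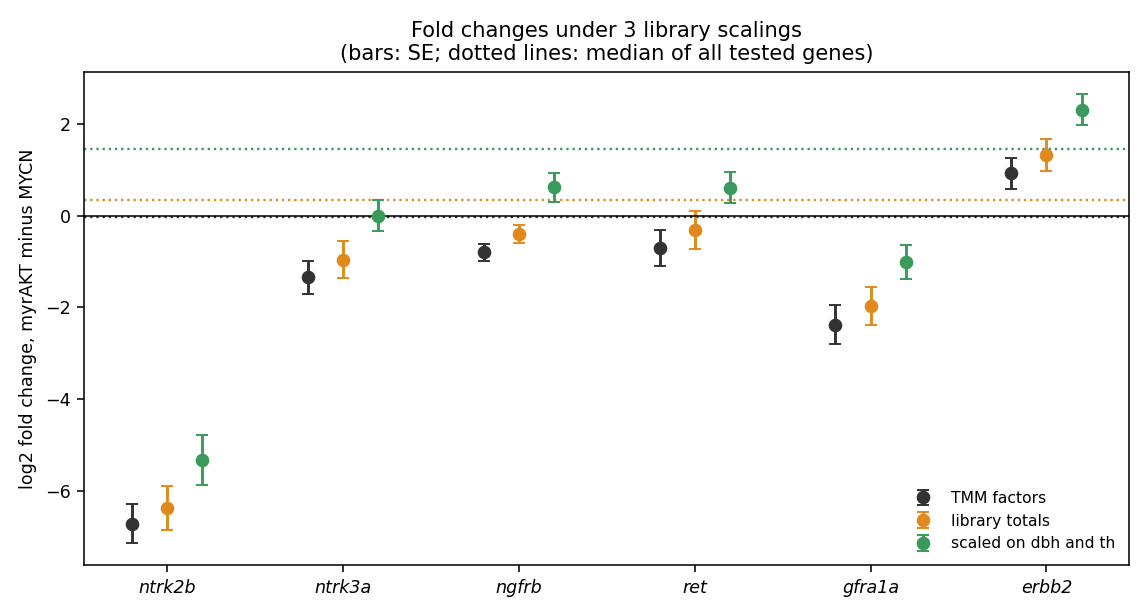
Log2 fold change (myrAKT minus MYCN) of each receptor gene with TMM factors, with library totals and under dbh/th scaling; bars are SE and dotted lines the median of all tested genes under each scaling. Ntrk2b and gfra1a are below 0 and erbb2 above 0 under all 3, while ngfrb and ret cross 0.

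Partners of p75 and of the Trk receptors moved both ways. Of 17 tested genes 10 rose, 4 fell and 3 did not pass, with a median log2 fold change of 0.69, where 37.6% of all tested genes were higher and 38.4% lower, with a median of -0.04. Without MYCN 4 the counts were 11 higher, 5 lower and 1 not called. Among those that rose, rtn4rl2a and rtn4rl2b, named outside the rule, passed the filter on low counts only through their myrAKT libraries. For these the filter favoured a rise. With a filter of at least 1 CPM in 4 libraries, 14 genes were tested, of which 9 rose and 4 fell. Sort1b, a sortilin that joins p75 in binding proneurotrophins, rose to 323 ± 36.1 CPM in myrAKT, against 39.4 ± 10.5 CPM in MYCN (log2 fold change 3.03 with SE 0.22, edgeR adjusted p = 1.3e-06). Traf6, an adaptor of p75, rose by 1.13 on the log2 scale. Rtn4rl1b, of the Nogo receptor family, fell to 0.584 ± 0.204 CPM in myrAKT, against 8.91 ± 1.77 CPM in MYCN. Kidins220b, a scaffold of Trk receptors, was at -0.77 and psenen, a subunit of the gamma-secretase that cleaves p75, at -0.50, but under dbh/th scaling they turned to 0.68 (adjusted p = 0.056) and 0.94 (adjusted p = 0.0068). With library totals 11 of the 17 were higher and 1 lower.

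Adaptors and kinases that carry the signal to ERK also moved both ways. Of 37 tested genes 17 rose, 11 fell and 9 did not pass, with a median log2 fold change of 0.28, where 37.6% of all tested genes were higher and 38.4% lower. The strongest calls among those that rose were rras, a small GTPase, which averaged 58.9 ± 3.49 CPM in myrAKT libraries and 4.78 ± 0.529 CPM in MYCN libraries, plcg2, a phospholipase C gene typical of blood cells, which averaged 360.4 ± 47.0 CPM in myrAKT libraries and 59.2 ± 5.74 CPM in MYCN libraries, and the kinase gene araf, with 74.9 ± 5.34 CPM in myrAKT libraries and 17.5 ± 2.0 CPM in MYCN libraries. The strongest among those that fell were fyna, a Src family kinase, which averaged 9.74 ± 3.66 CPM in myrAKT libraries and 76.9 ± 6.64 CPM in MYCN libraries, and the adaptor grb2a, which averaged 5.0 ± 1.72 CPM in myrAKT libraries and 25.4 ± 3.66 CPM in MYCN libraries. Hrasb fell by 1.33 on the log2 scale with TMM factors and stood at 0.12 under dbh/th scaling. The duplicates fynb and grb2b, named after their values were seen, also rose, fynb to 38.0 CPM on average in myrAKT, against 14.1 CPM in MYCN, and grb2b to 138 CPM in myrAKT, against 92.8 CPM in MYCN. Under dbh/th scaling 31 of the 37 rose and 2 fell, and without MYCN 4 the counts were 17 higher, 13 lower and 7 not called. In the same libraries the leukocyte marker sum was many times higher in myrAKT, and its part was not tested.

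Of 26 tested feedback inhibitors and transcriptional targets of ERK 17 rose, 5 fell and 4 did not pass, with a median log2 fold change of 1.36, where 37.6% of all tested genes were higher and 38.4% lower. Without MYCN 4 the counts were 15 higher, 6 lower and 5 not called. In the same libraries the leukocyte sum was between 17338 and 21899 CPM in myrAKT and between 441 and 1406 CPM in MYCN, and the endothelial sum between 444 and 670.4 CPM in myrAKT and between 14.8 and 29.9 CPM in MYCN; their part in these counts was not tested. Cbl, a ubiquitin ligase for activated receptor kinases, rose to 244 ± 34.0 CPM in myrAKT, against 33.7 ± 2.95 CPM in MYCN (log2 fold change 2.86 with SE 0.14, edgeR adjusted p = 1.8e-07). Etv4, an ETS factor induced by ERK, rose to 42.8 ± 3.3 CPM in myrAKT, against 3.29 ± 1.27 CPM in MYCN, and dusp6, an ERK phosphatase, to 308 ± 79.5 CPM in myrAKT, against 47.9 ± 4.55 CPM in MYCN. Spred3, a Sprouty-related inhibitor of RAS signalling, fell to 3.34 ± 1.13 CPM in myrAKT, against 34.7 ± 13.1 CPM in MYCN. Fosab, an immediate-early gene, fell by 3.37 on the log2 scale and had between 7.51 and 12.2 CPM in myrAKT libraries and between 32.7 and 193 CPM in MYCN libraries. Rnf41, known in mammals as a ubiquitin ligase for ERBB3, fell by 1.07 with TMM factors and stood at 0.40 under dbh/th scaling.

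**Figure D5:**
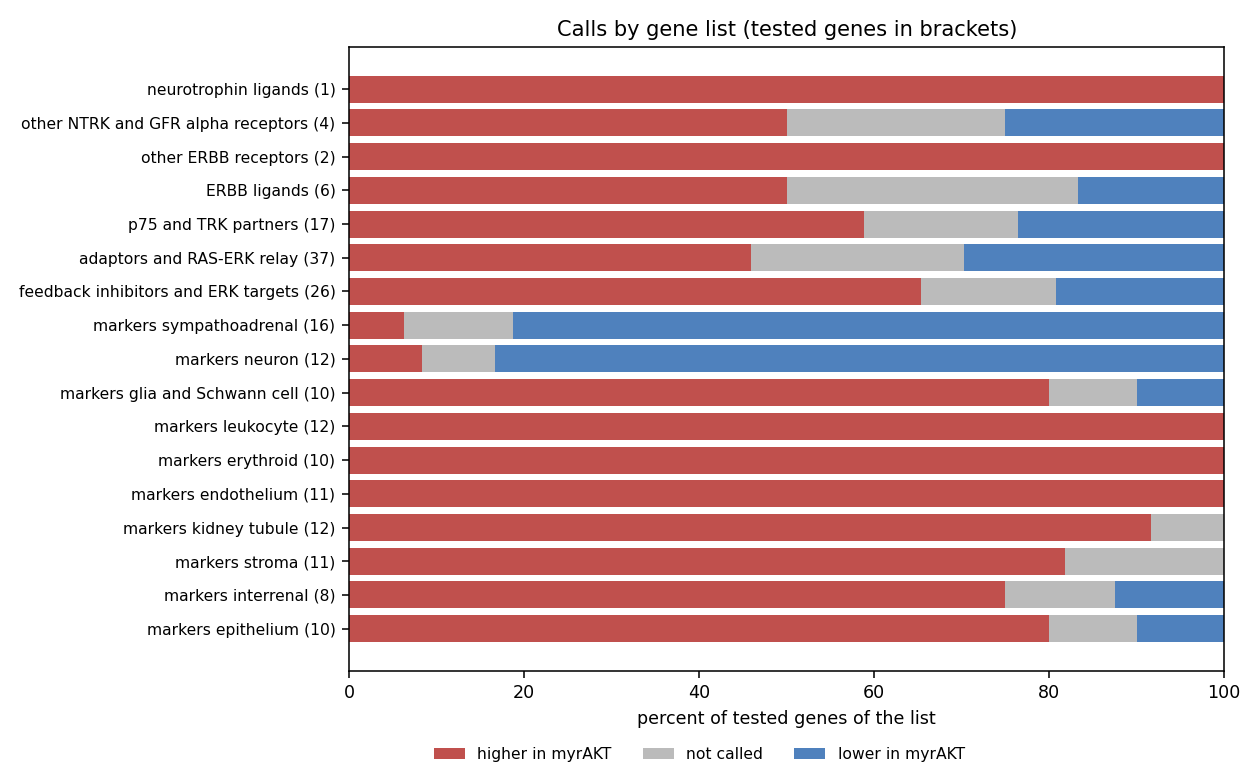
Share of the tested genes of each list that were called higher in myrAKT, not called, or called lower in myrAKT at an edgeR adjusted p under 0.05; the number of tested genes is in brackets and the 6 receptor genes are left out. Sympathoadrenal and neuron markers are mostly lower, at 13 of 16 and 10 of 12, and markers of blood, vessel, kidney and epithelial cells mostly higher. Over all tested genes 37.6% were higher and 38.4% lower.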

How the data were processed

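RNA was sequenced from sorted tumour cells of 8 zebrafish samples, 4 myrAKT and 4 MYCN. The authors deposited raw read counts per gene symbol, 1 column per library, and every column matched a sample title. Per the submitters' processing notes, the build was GRCz10 and the tools included TopHat2 2.1.1 and HTSeq 0.6.1. For the annotation, the strand setting and reads shared by gene copies, the sources used here give nothing, so counts of duplicated genes are uncertain. Gene lengths were not used, so levels are not compared between genes.

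Genes were filtered with filterByExpr (12126 kept), scaled with TMM factors and tested with edgeR 4.0.16 (R 4.3.3; robust quasi-likelihood F test), adjusted by Benjamini-Hochberg over all tested genes, at a threshold of 0.05. Fold changes are myrAKT minus MYCN, and each SE was derived from the F statistic. Ratios of counts (0.5 added) were tested by exact permutation over the 70 splits of libraries (scipy 1.17.1); 2 of the planned ratios could be computed, since the others need ntrk2a, ntrk3b, ngfra or erbb3b, which were not tested. On simulated counts the fit recovered 53 of 100 2-fold changes and 89 of 100 4-fold changes, and it called 10 unchanged genes. A gene that did not pass may therefore still differ by about 2-fold. Over 12 pairs of libraries within groups, the chi-square statistic divided by its degrees of freedom ran between 21.2 and 286, so no library was treated as a repeat of another.

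The members and lists were chosen with earlier results of these data known. The lists name 317 symbols, with 224 in the table under that name and 13 under another that a RefSeq table (GRCz12tu) pairs with that gene alone. Genes named were the members, every called ligand and receptor, the 3 strongest calls per direction of the partner, adaptor and feedback lists, and the 2 most abundant markers of each list, of which only those beside a result are printed; a few genes that the rule names are not reported here. Alternatives were other scalings and filters, DESeq2 1.42.0, limma 3.58.1 voom, a replicate block and leaving out each library.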

Additional observations from a re-analysis of the deposited data

Results flagged for a closer look

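In the MYCN group, ngfrb in MYCN 3 lay apart from the other 3 libraries, at 62.6 CPM with the nearest at 70.6 CPM. The log2 ratio of ntrk2b to dbh and th in MYCN 4 lay apart at -9.81, with the nearest MYCN library at -8.64. The log2 ratio of ret to ntrk3a in myrAKT 1 lay apart at 3.71, with the nearest myrAKT library at 3.82. These 3 came from 30 groups of 4 libraries examined, of which chance flags about 1 in 20.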

How the results depend on the processing

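The fold changes of ntrk2b and gfra1a kept their direction and their side of the threshold under every scaling, filter, tool, block and left-out library that was run. Under dbh/th scaling 2 members were lower in place of 4, ntrk3a was at 0.00 and no longer called, and ngfrb (0.62) and ret (0.61) changed sign without passing. With library totals ngfrb was at -0.40 and no longer called. The cause was not tested. The replicate block left erbb2 at 0.89 (adjusted p = 0.076), so that 0 members were higher, and changed no other member's call. The labels used here do not say whether same-numbered libraries belong together. Deviations of same-numbered libraries correlated at -0.128, 0.00754, 0.12 and -0.176, which cannot settle that. Leaving out single libraries gave 0 to 1 members higher and 4 to 5 lower, log2 fold changes of 0.72 to 1.2 for erbb2 and -1.01 to -0.38 for ret, and -0.20 to 0.30 for the ratio of ntrk3a to dbh and th. With 7 libraries the exact test cannot go below 0.0571, so ratios were read there by size only, and the sign-flip test over 4 numbered pairs cannot go below 0.125. Over all genes, 8837 to 9988 were called without single libraries and 9349 under dbh/th scaling, of which 89.0% were higher against 49.5% with TMM factors and 62.2% with library totals. Depth limits ntrk2b in myrAKT (5 or 6 counts a library) and the ligand genes bdnf and gdnfa, which were not tested.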
